A study of Triticum aestivum with 23 samples.

Results

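The 3 homoeologues of the wheat brassinosteroid (BR) receptor gene, *TaBRI1-A* (TraesCS3A03G0629800), *TaBRI1-B* (TraesCS3B03G0712100) and *TaBRI1-D* (TraesCS3D03G0579600), were followed across seedling transcriptomes of *tabri1* mutants and wild types. They were chosen by identifier and not by a cut on their values, though earlier results of these data were known. They are 3 of the 266760 genes in the deposited table. All 3 passed the filter on low values that left 83495 genes for testing. RNA was taken from the whole shoot of seedlings at leaf stage 2, grown at 21 °C under continuous light, and sequenced in 23 libraries of 6 genotypes. The null segregant *TaBRI1-NS* is the wild type selected from the crosses that combined the mutations, and Cadenza is the cultivar whose mutagenised population supplied them. The double mutant *tabri1-bd* carries premature stop codons in *TaBRI1-B* and *TaBRI1-D* and a wild-type *TaBRI1-A*. In the triple mutants those b and d alleles are combined with a mutated A homoeologue, a.1 in *tabri1-a.1bd*, a.2 in *tabri1-a.2bd* and a.3 in *tabri1-a.3bd*, where a.1 is a stop codon and a.2 and a.3 are amino acid substitutions. The a.1, b and d alleles came from mutagenised Cadenza lines, were combined by crossing and were backcrossed 3 times to reduce other mutations. The a.2 and a.3 lines came from mutagenised *tabri1-bd* seed, and the study crossed them to *tabri1-bd*. Each mutant line can thus carry other induced mutations. Each genotype had 4 libraries, except *tabri1-a.1bd* with 3. The replicates are separate samples in the labels, and plants were pooled within a replicate of the tissue used.

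BRs are plant steroid hormones that promote cell elongation and set leaf angle and plant height. In Arabidopsis, where the pathway is best known, BRI1 is a leucine-rich repeat receptor kinase at the cell surface that binds the hormone with its extracellular part. Binding releases the inhibitor protein BKI1 from the kinase and recruits the co-receptor kinase BAK1, and the signal then passes through the kinases BSK1 and CDG1 and the phosphatase BSU1. These inactivate the kinase BIN2, which otherwise keeps the BZR transcription factors out of action. Bread wheat is hexaploid, so that 1 homoeologue of *BRI1* lies on each of the chromosomes that the identifiers name 3A, 3B and 3D.

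The values are TPM, a transcript level scaled to gene length and to the total of the library. A TPM value counts transcripts of mutant and wild-type alleles alike, so that it gives the amount of transcript and not of working receptor, and it does not show which allele a library carries. The TPM steps gave back 22528350 to 38288584 reads a library (median 30075976). *TaBRI1-A* rested on 341 to 700 reads per library, *TaBRI1-B* on 226 to 657 and *TaBRI1-D* on 532 to 1420. The counting error of a single value was thus 2.65% to 6.65% of it, and it covers the counting of reads only. The libraries of *tabri1-a.1bd* stood apart from the rest, with array weights (limma's estimate of how closely a library follows its group over all genes) of 0.0787, 0.0631 and 0.438 against 0.849 to 2.59 in the other genotypes. The estimate of these weights stopped before it converged, so that they and the fits that use them are approximate. The tissue was not checked against marker genes, since the identifiers carry no names. In whole shoots, fewer cells that express a gene and less RNA of it per cell cannot be told apart.

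*TaBRI1-D* was the homoeologue with the most transcript in 23 of 23 libraries. Its TPM exceeded that of *TaBRI1-A* by 3.00 ± 1.15 TPM (SD, n = 23), a ratio between 1.25 and 1.85 with a median of 1.49. Against *TaBRI1-B* the difference was 3.07 ± 1.10 TPM, a ratio between 1.30 and 2.38 with a median of 1.52. Both differences had p = 2e-05 in a permutation test that flips the sign of the difference in each library (two-sided), the smallest value that 100000 resamples can give (adjusted p = 3e-05 over 3 comparisons). *TaBRI1-A* and *TaBRI1-B* did not differ beyond the spread between libraries, with a mean difference of B minus A of -0.07 ± 0.80 TPM (p = 0.66, permutation test), and *TaBRI1-B* was the higher of the pair in 12 libraries. By TPM the order of levels was therefore *TaBRI1-D* first, with *TaBRI1-A* and *TaBRI1-B* not separated. The p-values of the permutation test show that the offset repeats between libraries. An offset from read assignment or from the gene lengths used would repeat in the same way, and its part was not tested. The TPM steps imply gene lengths of 0.890 for *TaBRI1-B* and 1.10 for *TaBRI1-D* relative to *TaBRI1-A*, so the read counts of *TaBRI1-D* exceed those of the other homoeologues by more than its TPM do. In reads, which are not scaled to length, *TaBRI1-B* was higher than *TaBRI1-A* in 4 of 23 libraries (adjusted p = 8e-05, permutation test).

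**Figure D1:**
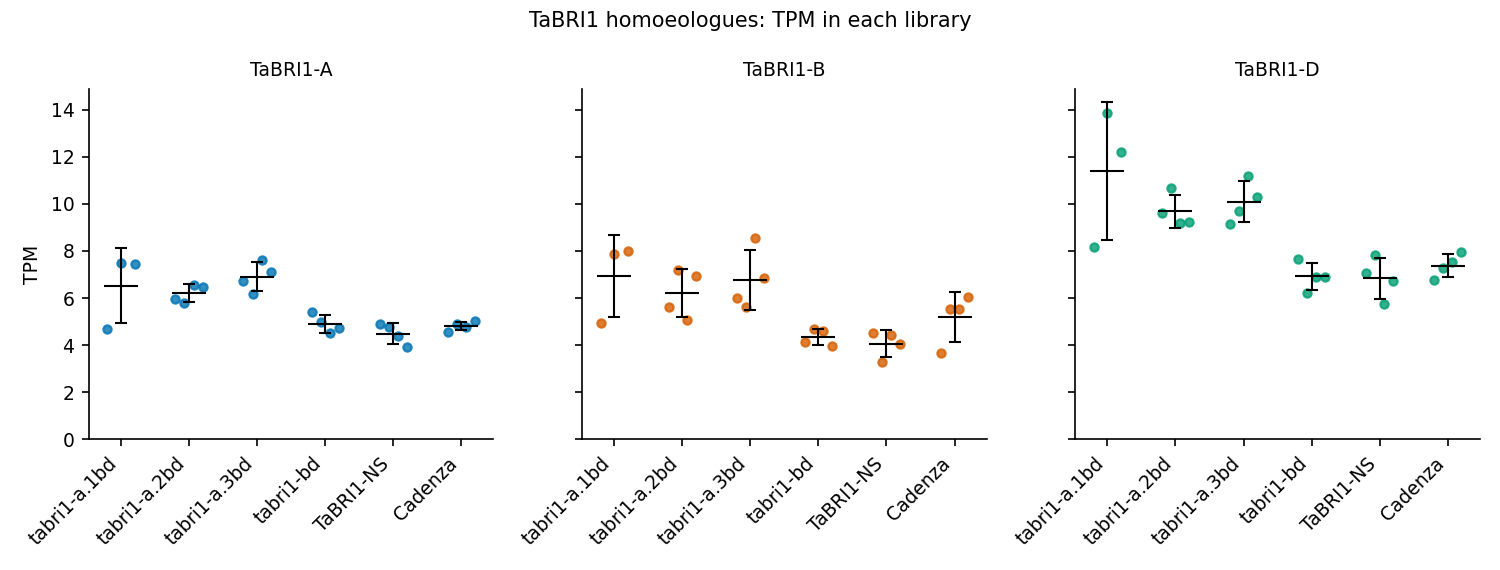
TPM of each homoeologue (panels) in each library (points), by genotype, with the mean and SD in black. The 3 triple mutants lie above *tabri1-bd* and *TaBRI1-NS* apart from replicate 1 of *tabri1-a.1bd*, which lies among them for *TaBRI1-A* (4.68 TPM) and just above them for *TaBRI1-B* (4.93 TPM) and *TaBRI1-D* (8.16 TPM).

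In the wild types and in *tabri1-bd*, *TaBRI1-A* lay in a narrow band. It was at 4.89, 4.76, 4.41 and 3.90 TPM in *TaBRI1-NS*. The Cadenza libraries had 4.57, 4.90, 4.78 and 5.02 TPM. The *tabri1-bd* libraries had 5.39, 4.97, 4.51 and 4.72 TPM. These 3 genotypes overlap. In *tabri1-a.2bd* the values were 5.95, 5.80, 6.57 and 6.49 TPM, and in *tabri1-a.3bd* they were 6.74, 6.15, 7.61 and 7.11 TPM. Every library of these 2 mutants lay above every library of the 3 other genotypes just named. Of all genes tested, 10.4%, 11.6% and 6.49% lay so in *tabri1-a.2bd* against *TaBRI1-NS*, *tabri1-bd* and Cadenza, and 8.33%, 9.57% and 3.79% in *tabri1-a.3bd*. The share for both mutants against all 3 genotypes at once was not computed. The *tabri1-a.1bd* libraries had 4.68, 7.48 and 7.43 TPM. Replicate 1 of this mutant thus lay within the range of *TaBRI1-NS*, and replicates 2 and 3 lay with the highest libraries of *tabri1-a.3bd*.

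*TaBRI1-B* varied more between replicates. It was at 4.52, 3.30, 4.41 and 4.06 TPM in *TaBRI1-NS* and at 4.15, 4.69, 4.58 and 3.95 TPM in *tabri1-bd*. Cadenza had 3.66, 5.53, 5.55 and 6.05 TPM, so that 3 of its 4 libraries lay above all of *TaBRI1-NS* and *tabri1-bd*. The triple mutants had 4.93, 7.88 and 7.996 TPM (*tabri1-a.1bd*), 5.64, 7.18, 5.09 and 6.94 TPM (*tabri1-a.2bd*) and 6.02, 5.64, 8.53 and 6.87 TPM (*tabri1-a.3bd*). All 11 lay above every library of *TaBRI1-NS* and *tabri1-bd*, and each triple mutant overlapped with Cadenza. With *tabri1-a.1bd* taken alone, 22.8% and 24.6% of all genes tested lay so against *TaBRI1-NS* and *tabri1-bd*. The shares were 10.4% and 11.6% for *tabri1-a.2bd* and 8.33% and 9.57% for *tabri1-a.3bd*. The share of genes with all 11 libraries above both genotypes was not computed.

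*TaBRI1-D* was at 7.08, 7.84, 5.73 and 6.70 TPM in *TaBRI1-NS*, at 7.64, 6.22, 6.91 and 6.90 TPM in *tabri1-bd* and at 6.78, 7.27, 7.52 and 7.95 TPM in Cadenza. The triple mutants had 8.16, 13.9 and 12.2 TPM (*tabri1-a.1bd*), 9.63, 10.7, 9.17 and 9.24 TPM (*tabri1-a.2bd*) and 9.16, 9.71, 11.2 and 10.3 TPM (*tabri1-a.3bd*). For this homoeologue the 11 triple mutant libraries lay above all 12 libraries of the other genotypes. With *tabri1-a.1bd* taken alone, 22.8%, 24.6% and 18.0% of all genes tested lay so against *TaBRI1-NS*, *tabri1-bd* and Cadenza. The shares for *tabri1-a.2bd* and *tabri1-a.3bd* are those given for *TaBRI1-A*. The share for all 11 libraries against all 12 was not computed. The replicates of *tabri1-a.1bd* were the most spread for each homoeologue, with a coefficient of variation of 24.6% for *TaBRI1-A*, 25.1% for *TaBRI1-B* and 25.7% for *TaBRI1-D*.

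The first comparison asked whether each genotype differed from *TaBRI1-NS* in *TaBRI1* transcript. A limma model of log2(TPM + 0.5) over all 83495 genes and 23 libraries was used, with p-values adjusted by Benjamini-Hochberg and a gene called at 0.05. All 5 contrasts share the 4 *TaBRI1-NS* libraries. In *tabri1-a.1bd*, all 3 homoeologues were higher, by 0.47 ± 0.13 for *TaBRI1-A* (log2 change ± SE, 1.39-fold, adjusted p = 0.0065), 0.68 ± 0.19 for *TaBRI1-B* (1.60-fold, adjusted p = 0.0052) and 0.67 ± 0.14 for *TaBRI1-D* (1.60-fold, adjusted p = 0.00052). In this contrast 24.5% of all genes tested were called higher and 19.3% lower, the median log2 change of all genes was 0.10, and the 3 changes exceeded those of 69.95%, 78.7% and 78.4% of the genes. Every *tabri1-a.1bd* library was above every *TaBRI1-NS* library for *TaBRI1-B* and *TaBRI1-D* but not for *TaBRI1-A*, beside 22.8% of all genes tested. Without *tabri1-a.1bd* replicate 1 the log2 changes were 0.68, 0.89 and 0.89 for A, B and D, with adjusted p-values of 4.7e-05, 0.00058 and 4.6e-06. Without replicate 2 *TaBRI1-A* was not called (0.36, adjusted p = 0.0502). The shared variance of the model is smaller than the spread of the *tabri1-a.1bd* replicates, so that its SE understates that spread. When only the 2 genotypes compared were fitted, the limma adjusted p-values were 0.12, 0.049 and 0.047 for A, B and D. With limma's array weights, *TaBRI1-B* was not called (adjusted p = 0.091).

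In the mutants with a substitution in *TaBRI1-A*, the changes were of a similar size. Against *TaBRI1-NS*, *tabri1-a.2bd* was higher in *TaBRI1-A* by 0.43 ± 0.12 (1.34-fold, limma adjusted p = 0.036) and in *TaBRI1-D* by 0.48 ± 0.13 (1.39-fold, adjusted p = 0.027). *TaBRI1-B* had a log2 change of 0.55 ± 0.17 and missed the threshold (adjusted p = 0.054). These are 2 of 3 homoeologues called higher, against 3.99% of all genes tested called higher and 3.47% lower. Every library of this mutant lay above every *TaBRI1-NS* library for all 3 homoeologues, as was so for 10.4% of all genes. In *tabri1-a.3bd*, all 3 homoeologues were called higher, with log2 changes of 0.57 ± 0.12 for *TaBRI1-A* (1.48-fold, adjusted p = 0.017), 0.66 ± 0.17 for *TaBRI1-B* (1.58-fold, adjusted p = 0.046) and 0.53 ± 0.13 for *TaBRI1-D* (1.45-fold, adjusted p = 0.033). Here 1.65% of all genes tested were called higher and 0.649% lower, the 3 changes exceeded those of 91.1% to 94.7% of all genes, and every mutant library was above every *TaBRI1-NS* library, as for 8.33% of all genes. With limma voom on reads recovered from the TPM, 2 of 3 homoeologues were called in *tabri1-a.2bd* and 2 of 3 in *tabri1-a.3bd*, beside 3 of 3 in *tabri1-a.1bd*.

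These calls rested on few libraries. In *tabri1-a.2bd*, 0 of 3 homoeologues were called by limma without *tabri1-a.2bd* replicate 1, 2 or 4 or without *TaBRI1-NS* replicate 3 or 4, and 1 without *TaBRI1-NS* replicate 2. In *tabri1-a.3bd*, 0 were called without *tabri1-a.3bd* replicate 3 or 4 or without *TaBRI1-NS* replicate 3 or 4, and 1 without *TaBRI1-NS* replicate 1. The log2 changes themselves moved little in these fits, between 0.37 and 0.63 in *tabri1-a.2bd* and between 0.46 and 0.74 in *tabri1-a.3bd*. Conversely, in a fit without *tabri1-a.1bd* replicate 1, which takes no part in these contrasts but enters the shared variance, all 3 homoeologues were called in both mutants, with adjusted p-values between 0.0011 and 0.019. Over the 15 fits that each left out a library outside the contrast, *TaBRI1-A* and *TaBRI1-D* were called in 15 in both mutants, while *TaBRI1-B* was called in 4 of them for *tabri1-a.2bd* and 5 of them for *tabri1-a.3bd* (adjusted p up to 0.058 in the latter).

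The double mutant and Cadenza gave a different picture. In *tabri1-bd*, whose *TaBRI1-B* and *TaBRI1-D* carry stop codons, the log2 changes against *TaBRI1-NS* were 0.11 for *TaBRI1-A* (95% interval -0.14 to 0.37), 0.09 for *TaBRI1-B* (-0.27 to 0.45) and 0.02 for *TaBRI1-D* (-0.25 to 0.29). By limma on TPM 0 of 3 were called, beside 0.0731% of all genes tested called higher and 0.0527% lower. At an unadjusted p under 0.05 there were 0, and limma voom on the recovered reads also called 0. The interval for *TaBRI1-D* leaves out changes beyond 1.22-fold upwards and 0.842-fold downwards. In Cadenza the log2 changes were 0.09 (-0.16 to 0.35), 0.30 (-0.05 to 0.66) and 0.11 (-0.16 to 0.38) for A, B and D. Again 0 of 3 were called, with 0 at an unadjusted p under 0.05 and 0 by voom, against 1.95% of all genes called higher and 0.28% lower. The median change of all genes was 0.09 in Cadenza, and with median-of-ratios rescaling *TaBRI1-A* and *TaBRI1-D* were at -0.02 and -0.01.

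**Figure D2:**
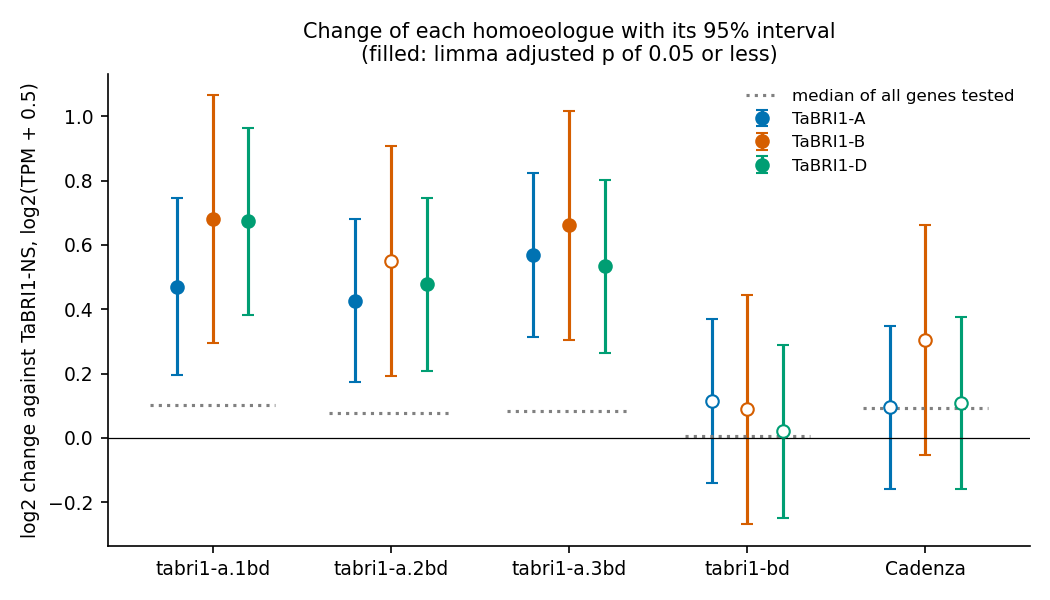
Log2 change of each homoeologue against *TaBRI1-NS* with its 95% interval from limma (filled points have an adjusted p of 0.05 or less), and the median change of all genes tested as a dotted line. The 9 points of the triple mutants lie between 0.43 and 0.68, above the dotted lines at 0.08 to 0.10, and the intervals of *tabri1-bd* and Cadenza all include 0.

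The triple mutants differ from *tabri1-bd* in the A allele, and can differ in other induced mutations. The second comparison set them against that double mutant. In *tabri1-a.1bd*, all 3 homoeologues were higher, by 0.36 for *TaBRI1-A* (limma adjusted p = 0.033), 0.59 for *TaBRI1-B* (0.013) and 0.65 for *TaBRI1-D* (0.00067), where 24.6% of all genes were called higher. In *tabri1-a.2bd* only *TaBRI1-D* was called (0.46, adjusted p = 0.033), and *TaBRI1-A* (0.31, adjusted p = 0.13) and *TaBRI1-B* (0.46, adjusted p = 0.11) were not, against 4.51% of all genes called higher. In *tabri1-a.3bd* the same homoeologue was called (0.51, adjusted p = 0.039), and *TaBRI1-A* (0.45, adjusted p = 0.054) and *TaBRI1-B* (0.57, adjusted p = 0.085) were not, against 1.81% of all genes. The libraries of *tabri1-a.2bd* and *tabri1-a.3bd* lay above every *tabri1-bd* library for each homoeologue, beside 11.6% and 9.57% of all genes tested. The *TaBRI1-D* call in *tabri1-a.2bd* was lost with voom (adjusted p = 0.056) and without *tabri1-a.2bd* replicate 1, 2 or 4 or *tabri1-bd* replicate 2, 3 or 4 (limma adjusted p of 0.062 to 0.11). That in *tabri1-a.3bd* was lost with voom (0.079), median-of-ratios rescaling (0.070), the replicate block (0.055) and no filter (0.052), without any 1 of its own libraries (0.053 to 0.12), without *tabri1-bd* replicate 2, 3 or 4 (0.080 to 0.13) and without Cadenza replicate 2 or 3 (0.051).

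Cadenza, the second wild type, lay closer to the triple mutants in *TaBRI1-B* than *TaBRI1-NS* did. Against Cadenza, *tabri1-a.1bd* was higher in *TaBRI1-A* (0.38, limma adjusted p = 0.029) and *TaBRI1-D* (0.56, adjusted p = 0.0027), and *TaBRI1-B* was not called (0.38, adjusted p = 0.12), where 17.3% of all genes were called higher. In *tabri1-a.2bd*, 0 of 3 were called by limma and 0 by voom, and 2 had an unadjusted p under 0.05, against 1.72% of all genes called higher. In *tabri1-a.3bd* the counts were also 0, 0 and 2, against 0.452% of all genes. *TaBRI1-A* and *TaBRI1-D* were called higher in both mutants with array weights (limma adjusted p of 0.0047 to 0.019) and in the fit without *tabri1-a.1bd* (0.0066 to 0.022). With median-of-ratios rescaling both were called in *tabri1-a.2bd* (0.043 each) and *TaBRI1-A* in *tabri1-a.3bd* (0.017). Between *tabri1-bd* and Cadenza, 0 of 3 were called by limma, 0 by voom and 0 at an unadjusted p under 0.05, against 3.66% of all genes called in either direction.

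Between the triple mutants themselves, 0 of 9 differences were called by limma, 0 by voom, and 0 had an unadjusted p under 0.05. The share of all genes called in either direction was 39.6% for *tabri1-a.1bd* against *tabri1-a.2bd*, 40.0% for it against *tabri1-a.3bd*, and 2.62% between the mutants with a substitution. The difference of *tabri1-a.1bd* minus *tabri1-a.2bd* was 0.04 (95% interval -0.23 to 0.32) for *TaBRI1-A*, 0.13 (-0.25 to 0.52) for *TaBRI1-B* and 0.20 (-0.10 to 0.49) for *TaBRI1-D*, so that the stop codon and the substitution in *TaBRI1-A* were not separated by its level. For *tabri1-a.1bd* minus *tabri1-a.3bd* the values were -0.10 (-0.37 to 0.18), 0.02 (-0.37 to 0.41) and 0.14 (-0.15 to 0.43). Without *tabri1-a.1bd* replicate 1, *TaBRI1-D* was called higher in *tabri1-a.1bd* than in *tabri1-a.2bd* (0.41, limma adjusted p = 0.011) and than in *tabri1-a.3bd* (0.35, adjusted p = 0.025), and *TaBRI1-A* and *TaBRI1-B* were not.

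Over the 10 pairs of genotypes other than those with *TaBRI1-NS*, 7 of 30 tests were called by limma. Leaving out *tabri1-a.1bd* replicate 1 raised this to 18, and it was 4 without *tabri1-bd* replicate 2, 3 or 4. In the fit without *tabri1-a.1bd* replicate 1, all 3 homoeologues were called higher than in *tabri1-bd* in each triple mutant. Without *tabri1-a.1bd* replicate 2 or replicate 3, only *TaBRI1-D* was called between *tabri1-a.1bd* and *tabri1-bd*. There the *TaBRI1-A* call was also lost with the replicate block (limma adjusted p = 0.052), median-of-ratios rescaling (0.084) and array weights (0.088), and without *tabri1-bd* replicate 2, 3 or 4 (0.053 to 0.082). With array weights the *TaBRI1-B* call was lost too (0.12).

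The sum of the 3 homoeologues gives the total *TaBRI1* transcript of a library. It was 15.4 ± 0.95 TPM in *TaBRI1-NS* (SD, n = 4), 16.2 ± 0.71 in *tabri1-bd* and 17.4 ± 1.69 in Cadenza (each n = 4). In the triple mutants it was 24.9 ± 6.20 TPM in *tabri1-a.1bd* (n = 3), 22.1 ± 1.31 in *tabri1-a.2bd* (n = 4) and 23.8 ± 2.68 for the 4 libraries of *tabri1-a.3bd*. All libraries of each triple mutant lay above the highest *TaBRI1-NS* library at 16.5 TPM, the lowest of them being *tabri1-a.1bd* replicate 1 at 17.8 TPM, which lay below 2 of the 4 Cadenza libraries. The ratio of means to *TaBRI1-NS* was 1.61 in *tabri1-a.1bd* (p = 0.057, exact two-sided permutation test), 1.43 in *tabri1-a.2bd* (p = 0.029) and 1.54 in *tabri1-a.3bd* (p = 0.029). These are the smallest p-values the design allows with 3 against 4 and 4 against 4 libraries, and adjusted over 5 comparisons they were 0.095, 0.071 and 0.071, and none passed 0.05. The ratio was 1.05 in *tabri1-bd* (p = 0.26, adjusted p = 0.26, exact permutation test) and 1.13 in Cadenza (p = 0.086, adjusted p = 0.11).

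The share of each homoeologue in that sum asks whether the balance between the 3 genes moved with the alleles. *TaBRI1-D* held between 39.2% and 49.3% of the sum in the 23 libraries, with a median of 44.0%. *TaBRI1-A* held between 24.5% and 31.5% (median 28.6%) and *TaBRI1-B* between 20.7% and 31.8% (median 27.7%). By genotype, the *TaBRI1-D* share was 45.8 ± 1.65% in *tabri1-a.1bd* (SD, n = 3), 43.8 ± 2.12% and 42.6 ± 1.82% in the mutants with a substitution (a.2 and a.3), 42.8 ± 2.47% in *tabri1-bd*, 44.3 ± 4.21% in *TaBRI1-NS* and 42.6 ± 1.79% in Cadenza (each n = 4). The *TaBRI1-B* share was 27.9 ± 1.00%, 28.0 ± 3.01%, 28.3 ± 2.12%, 26.9 ± 2.58%, 26.5 ± 4.09% and 29.6 ± 3.51% in the same order. In the 4 mutants, which all carry the stop codons in B and D, the mean shares of those homoeologues differed from *TaBRI1-NS* by between -1.75 and 1.76 points, less than the SD of *TaBRI1-NS* itself.

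The *TaBRI1-A* share was 26.3 ± 0.66% in *tabri1-a.1bd*, the genotype with a stop codon in it, 28.2 ± 2.88% and 29.1 ± 1.23% in the mutants with a substitution (a.2 and a.3), 30.3 ± 1.48% in *tabri1-bd*, 29.1 ± 1.70% in *TaBRI1-NS* and 27.8 ± 1.84% in Cadenza. Its libraries were at 26.3%, 25.6% and 26.9% in *tabri1-a.1bd* and at 31.4%, 31.3%, 28.2% and 30.3% in *tabri1-bd*, and these 2 genotypes did not overlap. The difference of -4.01 points was the largest of 27 tested between genotypes and had the smallest p (p = 0.057, exact two-sided permutation test, the smallest that 3 against 4 libraries allow). Adjusted over the 27 tests it was 0.81, and 0 tests had an unadjusted p of 0.05 or less. With so few libraries, no single difference could pass 0.05 after this adjustment. The HTSeq options are not given in the sources used here, so that reads alike in the 3 homoeologues could have been left out or split, and their part in the shares was not tested.

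**Figure D3:**
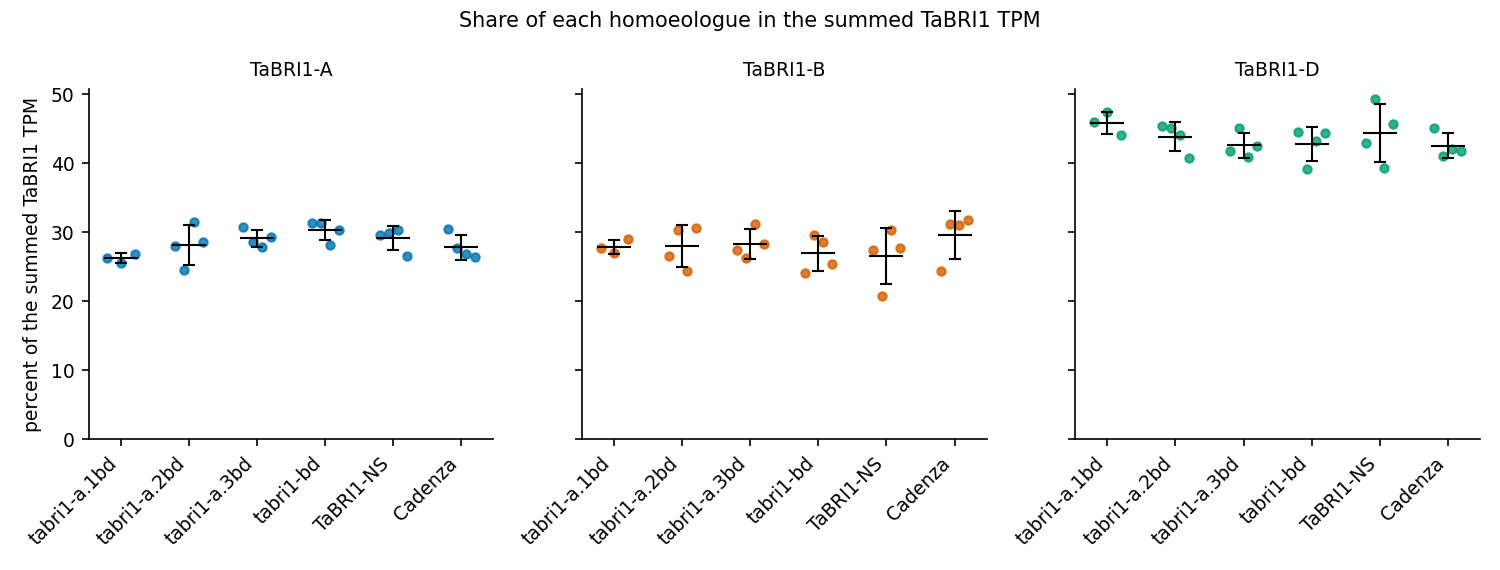
Percent of the summed *TaBRI1* TPM held by each homoeologue (panels) in each library (points), by genotype, with the mean and SD in black. *TaBRI1-D* lies between 39.2% and 49.3% in every library, and in the *TaBRI1-A* panel the points of *tabri1-a.1bd* (25.6% to 26.9%) lie below all of *tabri1-bd* and *tabri1-a.3bd*.

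The 3 homoeologues rose and fell together across libraries. Pearson's r of log2(TPM + 0.5) over the 23 libraries was 0.89 between *TaBRI1-A* and *TaBRI1-D*, 0.82 between *TaBRI1-A* and *TaBRI1-B* and 0.82 between *TaBRI1-B* and *TaBRI1-D*. These are descriptions, since the values of a library share its depth and scaling and the genotypes differ in level. After the mean of each genotype was taken out, r was 0.73, 0.55 and 0.52. Of all 83494 other genes tested, *TaBRI1-D* was the one most like *TaBRI1-A*, and *TaBRI1-A* came sixth for *TaBRI1-D*. For *TaBRI1-B*, *TaBRI1-D* ranked 44 and *TaBRI1-A* ranked 53, and *TaBRI1-B* ranked 36 for *TaBRI1-A* and 153 for *TaBRI1-D*. In *tabri1-a.1bd* replicate 1 all 3 homoeologues were low together, at 4.68, 4.93 and 8.16 TPM for A, B and D against 7.43, 7.996 and 12.2 TPM in replicate 3.

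**Figure D4:**
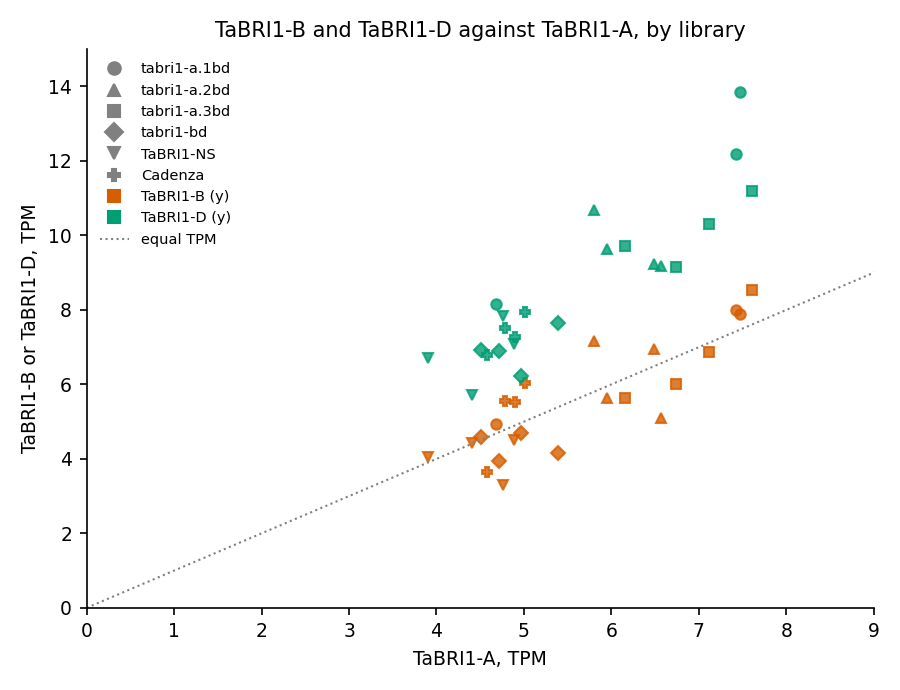
TPM of *TaBRI1-B* (orange) and *TaBRI1-D* (green) against that of *TaBRI1-A* in the same library, 1 marker shape per genotype, with a dotted line of equal TPM. Green points all lie above the line, orange points on both of its sides, and both climb with *TaBRI1-A*.

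Among 62026 high-confidence genes tested, 4 had an r above 0.9 to the mean of the 3 homoeologues, as a description over the 23 libraries. TraesCS1D03G0360000 had the highest (r = 0.93) and went from 0.79 ± 0.21 TPM in *TaBRI1-NS* to between 1.62 and 1.97 TPM on average in the triple mutants. TraesCS4D03G0701000 (r = 0.92) was at 65.8 ± 5.52 TPM in *TaBRI1-NS* and at 85.3 to 89.8 TPM in the triple mutants. They were followed by TraesCS2D03G0932900 (r = 0.913) and TraesCS3B03G0625300 (r = 0.901), and by TraesCS6A03G0054700 just under 0.9 (r = 0.897). The genes were chosen for following *TaBRI1* over these libraries, so that their rise in the triple mutants and their lower level in *tabri1-a.1bd* replicate 1 (59.6 against 106 and 104 TPM for TraesCS4D03G0701000) come with the choice. Their identifiers have no names in the sources used here.

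The direct partners of the receptor were compared next, in a list of BR signalling genes that the study chose. It pairs 31 genes other than *TaBRI1* with identifiers, and 27 passed the filter. The list was drawn up by the study and its results were known, so that its counts are not independent evidence. Of the 6 genes of the co-receptor *TaBAK1*, 5 were tested and 0 were called in any genotype against *TaBRI1-NS* by limma. Voom called 1 of them in *tabri1-a.2bd*, and at an unadjusted p under 0.05 there were 3 in *tabri1-a.2bd*, 1 in Cadenza and 0 in each of the others. The 3 genes of one *TaBAK1* set were the more abundant, *TaBAK1-B2* at 25.9 ± 2.61, *TaBAK1-D2* at 16.3 ± 3.06 and *TaBAK1-A2* at 15.6 ± 3.52 TPM in *TaBRI1-NS*. In *tabri1-a.1bd* the log2 changes of the 5 lay between -0.13 and 0.20, while all 3 *TaBRI1* homoeologues were higher. The replicates behind these changes were far apart. *TaBAK1-A2* was at 28.3, 14.6 and 11.8 TPM and *TaBAK1-B1* at 0.357, 0.879 and 2.33 TPM in replicates 1 to 3. These 3 libraries therefore cannot show that the co-receptor genes stayed level.

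The inhibitor *TaBKI1* went the other way in *tabri1-a.1bd*, with 3 of 3 homoeologues lower, beside 19.3% of all genes called lower. *TaBKI1-A* (TraesCS5A03G0604200) was at 0.36, 0.269 and 1.36 TPM in *tabri1-a.1bd* and at 2.7, 4.21, 5.35 and 4.69 TPM in *TaBRI1-NS*, a log2 change of -2.11 ± 0.27 (SE, limma adjusted p = 2e-06). *TaBKI1-B* (TraesCS5B03G0623000) was at 2.39, 0.272 and 1.14 TPM against 3.41, 4.45, 3.72 and 3.12 TPM (-1.43 ± 0.35, adjusted p = 0.0025). *TaBKI1-D* (TraesCS5D03G0569800) was listed at 0 in 1 library and at 0.327 and 0.598 TPM in the others, against 1.21, 1.89, 1.88 and 0.808 TPM (-1.30 ± 0.40, adjusted p = 0.012). The groups did not overlap for any of the 3, beside 16.9% of all genes tested with every *tabri1-a.1bd* library below every *TaBRI1-NS* library. Without *tabri1-a.1bd* replicate 1, 2 of the 3 were called, and with limma's array weights 1 of the 3. In *tabri1-a.2bd* the log2 changes were -0.59, -0.93 and -0.28 for A, B and D, and 0 were called by limma and by voom, with 2 at an unadjusted p under 0.05.

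Downstream of the receptor, *tabri1-a.1bd* had 6 list genes higher and 6 lower, of 27 tested, *TaBKI1* included. This is close to the 24.5% and 19.3% of all genes tested that were called higher and lower. The lower ones beside *TaBKI1* were the 3 *TaBZR1* genes, which encode transcription factors at the end of the pathway. Only *TaBZR-B1/BES1* (TraesCS2B03G0529800) among them changed by more than 2-fold, from 12.5, 10.2, 12.2 and 10.5 TPM in *TaBRI1-NS* to 2.45, 6.59 and 6.63 TPM (-1.15 ± 0.25, limma adjusted p = 0.00082). The 6 higher ones were 3 other *TaBZR* genes, both *TaBSU1* phosphatase genes and 1 of 2 *TaBSK1* kinase genes, with log2 changes of 0.32 to 0.75. Of the 3 *TaCDG1* kinase genes and the 3 *TaBIN2* kinase genes, 0 were called by limma, 0 by voom and 0 had an unadjusted p under 0.05. For *TaCDG1* this differs from the study, which reports a significant reduction in this mutant. The study used DESeq2 on read counts, a test not run here. The median over the 27 list genes was 0.09, beside 0.10 over all genes, and after median-of-ratios rescaling 3 were called higher and 7 lower. With array weights 1 list gene was called, with a fit of the 2 genotypes alone 1 was higher and 4 lower, and without *tabri1-a.1bd* replicate 2 the count was 2 higher and 6 lower.

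In the other genotypes the list had no called gene in the main fit. By limma 0 of 27 were called in *tabri1-a.2bd*, where 8 had an unadjusted p under 0.05 and voom called 1, beside 3.99% of all genes called higher and 3.47% lower. In *tabri1-a.3bd* the counts were 0 by limma, 4 unadjusted and 0 by voom (1.65% and 0.649% of all genes higher and lower), in *tabri1-bd* they were 0, 0 and 0 (0.0731% and 0.0527%), and in Cadenza 0, 2 and 0 (1.95% and 0.28%). In *tabri1-a.2bd* and *tabri1-a.3bd*, *TaBRI1* itself was thus the list member that limma called, with 2 and 3 homoeologues.

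**Figure D5:**
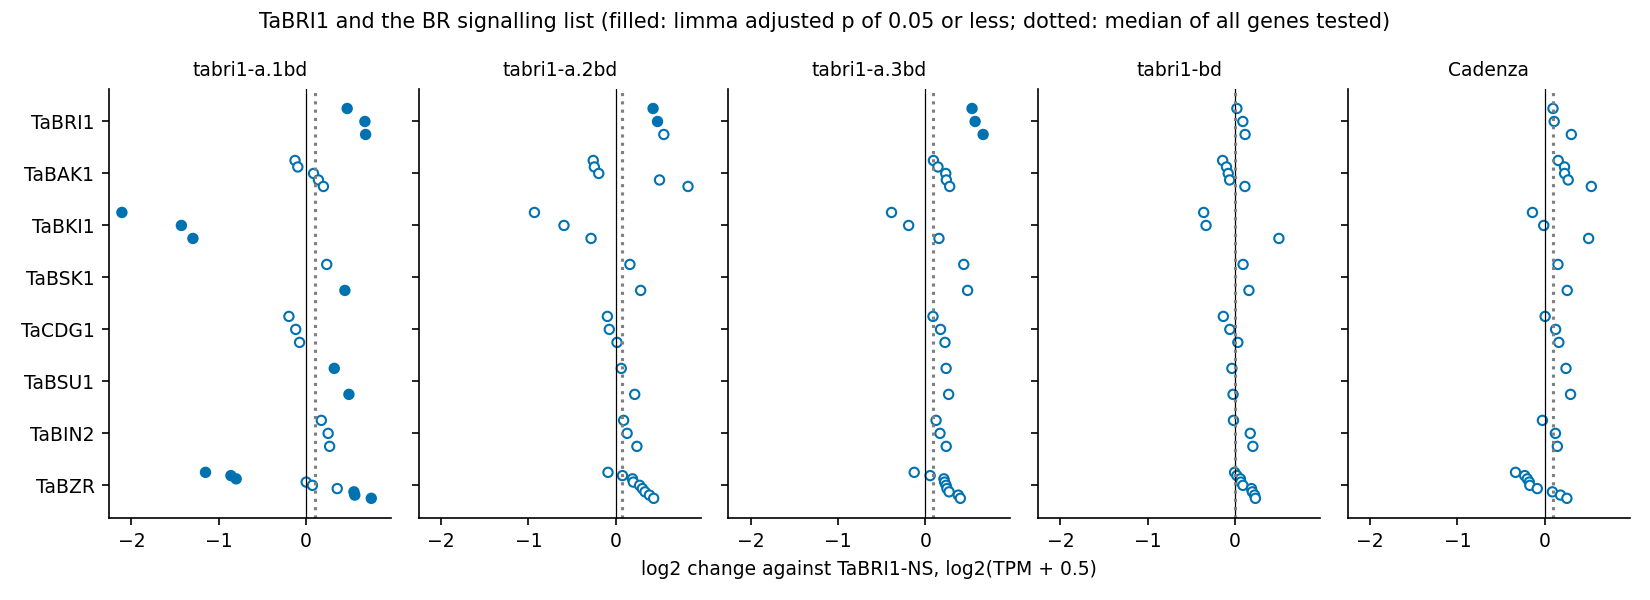
Log2 change against *TaBRI1-NS* (x axis) of the 3 *TaBRI1* homoeologues and of the 27 tested BR signalling genes, by family (rows) and genotype (panels). Filled points were called by limma, the dotted line is the median of all genes, and filled points outside the *TaBRI1* row are found in the *tabri1-a.1bd* panel alone, with *TaBKI1* furthest to the left.

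Genes beside each *TaBRI1* locus were examined to see whether neighbours on the chromosome moved with it. The 10 tested high-confidence genes on either side in identifier order were taken, 20 a locus. In *tabri1-a.1bd*, 5 were higher and 4 lower beside *TaBRI1-A*, 6 and 3 beside *TaBRI1-B*, and 6 and 6 beside *TaBRI1-D*, together 17 higher and 13 lower of 60, beside 24.5% and 19.3% of all genes. Without *tabri1-a.1bd* replicate 1 the counts were 6 and 4, 6 and 3, and 3 and 7. The nearest neighbours that changed by more than 2-fold were TraesCS3A03G0630000 on one side of *TaBRI1-A* (log2 change 2.16), TraesCS3B03G0711700 and TraesCS3B03G0712900 on the sides of *TaBRI1-B* (1.54 and 3.21) and TraesCS3D03G0579400 beside *TaBRI1-D* (2.11). Further out beside *TaBRI1-A*, TraesCS3A03G0628000 (1.92) and TraesCS3A03G0633400 (1.39) were higher, and TraesCS3A03G0627600 (-1.96) and TraesCS3A03G0625500 (-1.14) were lower. Beside *TaBRI1-B*, TraesCS3B03G0706200 (1.07) and TraesCS3B03G0714500 (1.97) were higher, and TraesCS3B03G0713100 (-1.41) and TraesCS3B03G0715300 (-1.50) were lower. Beside *TaBRI1-D*, TraesCS3D03G0578500 (1.11) was higher, and TraesCS3D03G0580800 (-1.38) and TraesCS3D03G0582000 (-1.64) were lower.

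In *tabri1-a.2bd* 2 of the 60 neighbours were called, both higher, beside 3.99% of all genes, and in *tabri1-a.3bd* the same 2, beside 1.65%. By voom there were 4 in the first mutant and 0 in the second. They changed by less than 2-fold and were singled out after their values had been seen. They were TraesCS3A03G0631500, the third tested gene on one side of *TaBRI1-A* (log2 changes of 0.48 and 0.54 in the order of the mutants), and TraesCS3B03G0708400, the fifth on one side of *TaBRI1-B* (0.43 and 0.42). By limma 0 of 60 were called in *tabri1-bd*, with 3 at an unadjusted p under 0.05 and 0 by voom, and 0 in Cadenza, with 7 and 1.

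The *TaBRI1* balance was also set beside that of the other gene triads in the list, a description chosen after the data had been seen. Of 8 such triads with a mean summed level of at least 1 TPM, the D homoeologue held on average between 15.8% (*TaBIN2*) and 42.2% (a *TaBAK1* triad with a summed 2.99 TPM) of the sum, and in 0 of the 8 was it the highest in all 23 libraries. In the *TaCDG1* triad, at a summed 23.2 TPM, A held 42.2%, B 34.7% and D 23.1%.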

How the data were processed

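RNA of 23 libraries from 6 genotypes was grouped by the genotype in the labels. Trimming (Trimmomatic 0.39), alignment to the IWGSC RefSeq v2.1 genome (STAR 2.7.8a) and counting per gene (HTSeq 0.11.3) were done by the authors, who deposited TPM, 1 column per library. The HTSeq options and gene lengths are not given in the sources used here.

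Genes of at least 0.5 TPM in at least 3 libraries were fitted with limma 3.58.1 in R 4.3.3 (log2(TPM + 0.5), 1 term per genotype, trended and robust eBayes). A fold change on this scale understates that of low genes. Whole reads were recovered from the TPM steps (within 0.02 reads) for 98.257% of the genes tested and used for depth and a voom alternative. The limma fit and the recovery were tested on simulated data. The simulated spread was the same in every genotype, so that the wider spread of *tabri1-a.1bd* was not covered. Sums, shares and order were tested by permutation with scipy 1.17.1.

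The alternatives were pseudocounts of 0.1 and 1, no filter, a filter of 2 TPM, high-confidence genes, median-of-ratios rescaling, fits of the genotypes compared or without *tabri1-a.1bd*, array weights, a replicate block, voom, and each library left out. Leaving out libraries of a genotype outside the contrast, the alternatives on the other pairs, the other triads and the neighbours without a library were added after the data had been seen. The homoeologues and lists were chosen with earlier results of these data known. The text names the homoeologues, the *TaBAK1* and *TaBKI1* genes, other list genes and neighbours changed by more than 2-fold, and the 5 genes most like *TaBRI1*. What the number 1 to 4 of a replicate shares is not stated, and the main fits had no term for it. Where nothing says that replicates are separate plantings, p-values measure the spread between these samples. No sequence of the homoeologues was used here.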

Additional observations from a re-analysis of the deposited data

Results flagged for a closer look

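In 1 of 35 groups of 4 libraries, 1 library lay far from the others. *TaBRI1-B* held 24.38% of the summed TPM in Cadenza replicate 1, and 31.1% to 31.8% in the 3 other Cadenza libraries, a gap of 0.904 of the range of the group. Its share of the recovered reads was 21.4% (95% Wilson interval 19.2% to 23.7%) against 27.5% to 28.2% in the others, so that the gap is larger than the counting error. The level of *TaBRI1-B* in that library, 3.66 TPM, lay within the range of *TaBRI1-NS*. Chance alone flags about 5% of such groups. Groups of 3, such as *tabri1-a.1bd*, were not examined in this way.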

How the results depend on the processing

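Among the alternatives to the contrasts with *TaBRI1-NS*, every change of the 3 homoeologues in the triple mutants kept its direction, and the calls in *tabri1-bd* and Cadenza stayed at 0. The log2 changes ranged over these alternatives from 0.35 to 0.89 for *tabri1-a.1bd*, 0.34 to 0.63 for the a.2 allele and 0.43 to 0.74 for the a.3 allele. The number called went from 2 to 1 in *tabri1-a.2bd* with the replicate block, and from 3 to 1 in *tabri1-a.3bd* with median-of-ratios rescaling and to 0 with a separate fit of the genotypes. With each library left out it ranged from 2 to 3 in *tabri1-a.1bd* and from 0 to 3 in both mutants with a substitution, and was 0 in *tabri1-bd* and Cadenza. The cause of these shifts was not tested. The calls over the 10 other pairs were 7, with 11 under array weights and 4 to 18 with a library left out. The small changes that turned sign were *TaBRI1-D* in *tabri1-bd* (-0.025 without *tabri1-bd* replicate 1 and -0.056 without *TaBRI1-NS* replicate 3, in a range of -0.056 to 0.085) and, after median-of-ratios rescaling, *TaBRI1-A* and *TaBRI1-D* in Cadenza (-0.021 and -0.011).

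The log2 ratio of summed TPM passed the threshold after median-of-ratios rescaling, at an adjusted p of 0.048, in *tabri1-a.2bd* (0.43), *tabri1-a.3bd* (0.51) and *tabri1-bd* (0.063). With a library left out it lay between 0.56 and 0.88 for the a.1 allele, 0.49 and 0.56 for a.2, 0.55 and 0.67 for a.3, 0.04 and 0.10 in *tabri1-bd* and 0.13 and 0.24 in Cadenza. Share tests stayed at 0 called. Over 27 tests with so few libraries, no single difference could pass 0.05 after adjustment, so this count says little about the balance. *TaBRI1-B* minus *TaBRI1-A* was -54.2 reads (called, as reads are not per length), 0.0291 TPM without the *tabri1-bd* libraries and 0.000918 TPM without the *TaBRI1-NS* libraries. List genes called in *tabri1-a.1bd* were 12, with 1 under array weights, 5 in the fit of 2 genotypes and 8 to 12 with a library left out. In *tabri1-a.2bd* they were 4 under array weights and 1 with the replicate block, and 0 to 1 with a library left out, as in *tabri1-a.3bd*.

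The labels do not say what a replicate number shares, and the check did not settle whether the numbers pair the samples. Over 55 pairs of libraries with the same number, deviations from the genotype means correlated between -0.13 and 0.11, with 1 pair over 0.1. Between libraries of different numbers and genotypes, the range was -0.13 to 0.13. Yet 12 of 23 libraries were closest to one of their own number, more than the 5.75 that would be if the numbers carried nothing. No test of this excess was run. With the replicate block, *TaBRI1-A* in *tabri1-a.2bd* was at a limma adjusted p of 0.053. Permutation within replicate numbers gave an adjusted p of 0.25 for each summed ratio. With 4 or fewer pairs of libraries, that test cannot give a p of 0.05 or less, so it does not decide whether the sums differ. Depth limits single values to a counting error of 2.65% to 6.65%.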
